A study of Schizosaccharomyces pombe with 6 samples.

Results

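The meiotically upregulated genes of fission yeast, whose names begin with mug, were examined in vegetative cultures that lacked monoubiquitination of histone H2B. Rows of the deposited gene table with a mug symbol were taken, and genes on 12 clones near the chromosome ends were left out. This rule gave 103 mug genes of 5184 genes in all, and left out 2 further genes with a mug symbol. The rule used the gene's name and position and none of its measured values. In the Gene Ontology process column of the deposited table, 95 of the 103 were annotated to the meiotic cell cycle.

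RNA-seq was performed on 3 libraries of htb1-K119R and 3 libraries of WT Schizosaccharomyces pombe, all from whole cells. The htb1-K119R strain carries an arginine in place of the lysine of H2B that receives ubiquitin, and its strain list entry reads h- ura4-D18 htb1-K119R::kanMX6. The WT strain is listed as h+ ade6-M216 leu1-32 ura4-D18. Both strains thus carry ura4-D18, whereas mating type, the ade6 and leu1 alleles and the kanMX6 marker differ along with H2B, and their effects cannot be told apart. The methods describe the libraries of a genotype as independent biological repeats.

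In S. pombe, H2B is ubiquitinated by the Brl1-Brl2 ligase with the Rhp6 conjugating enzyme, and the mark accompanies transcribing RNA polymerase II. The mug genes were named for transcripts that rise when diploid cells starve, enter meiosis and form spores. Their transcription is known to depend on a relay of factors, in which Ste11 induces early genes and the forkhead factor Mei4 induces middle genes through FLEX elements. In growing cells, some meiotic transcripts are also bound by Mmi1 at repeated hexamers called DSR and degraded by the nuclear exosome, with Rrp6 as one of its nucleases.

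Library totals lay between 15987167 and 20701391 counts. WT replicates 1 and 2 had TMM factors of 0.824 and 0.863, whereas WT replicate 3 had 1.17 and the htb1-K119R libraries between 1.01 and 1.13, so that WT replicate 3 stood apart from its group and results are also given without it where it mattered. The mutated gene, htb1, had 1346, 1387 and 1456 CPM in htb1-K119R and 1854, 1788 and 1360 CPM in WT, and its level did not pass the test (quasi-likelihood test of edgeR, p adjusted by Benjamini-Hochberg, FDR = 0.260). A substitution of a residue is not visible in gene counts, and this level does not check the genotype. Sums over the mating-type lists did not follow the listed mating types. Genes specific to M cells, the h- type, summed to between 73.7 and 95.8 CPM in htb1-K119R and between 72.6 and 98.6 CPM in WT, so that the strains overlapped, with mat1-Mi at 0 in every library. Genes specific to P cells, the h+ type, summed to between 1038 and 1103 CPM in htb1-K119R and between 759 and 1028 CPM in WT. This sum was thus higher in every library of the strain listed as h-. Most of it came from sxa1, at 993, 1068 and 1025 CPM in htb1-K119R and 1003, 940 and 728 CPM in WT. The strains overlapped at sxa1, which did not pass (FDR = 0.324). Of these lists, map2 and map4 were higher and mam4 was lower in htb1-K119R, and the other tested genes, among them map1 and map3, did not pass.

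Letters that the rule did not use were more frequent in the promoters of the mug genes than in those of all genes. The FLEX-type letters GTAAACA, read on both strands, stood in the 300 bases before the annotated transcript start of 44 of the 103 mug genes (42.7%), against 17.0% of 5108 genes with such a window. The variant GTAAATA was found in 27 mug promoters, or 26.2%, against 17.2% of all promoters. The Ste11-type letters TTCTTTGTT were found in 3 mug promoters, or 2.91%, against 2.02% of all. A match is a description of letters and not a measured binding site. Where no 5′ leader is annotated, the window lies directly before the coding sequence, so that windows are not alike between genes. The shares were not split by this. The following stretches from the ASM294v3 assembly of RefSeq show these letters, in capitals, in the 5 mug genes with FLEX-type letters that were called higher below, and in mug84, the mug gene with the lowest fold change tested. Each is read 5′ to 3′ on the gene's strand, and shorter stretches are shown where no 5′ leader is annotated.
mug94 (chrI:1219028-1219054, minus strand): gtattgtttaTGTTTACactccctttt
mug135 (chrIII:113447-113547, minus strand): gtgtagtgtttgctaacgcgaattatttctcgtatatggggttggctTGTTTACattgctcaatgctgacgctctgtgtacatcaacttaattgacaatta
mug93 (chrII:1461588-1461614, plus strand): agttattgttTGTTTACaaaagtgcac
mug27 (chrIII:1679593-1679619, minus strand): acccggtgttTGTTTACatttgctggg
mug125 (chrI:1087277-1087358, minus strand): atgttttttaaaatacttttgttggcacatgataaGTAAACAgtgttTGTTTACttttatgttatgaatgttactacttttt
mug84 (chrI:1180069-1180169, plus strand): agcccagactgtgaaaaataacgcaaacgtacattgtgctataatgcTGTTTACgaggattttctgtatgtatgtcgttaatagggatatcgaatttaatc

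In each stretch the letters nearest the transcript start read TGTTTAC, the reverse complement of GTAAACA. The distance from their first base to the annotated start was 157 bases at mug94, 69 at mug135, 121 at mug93, 173 at mug27, 35 at mug125 and 108 at mug84. At mug94, mug93 and mug27, which have no annotated 5′ leader, that start is the start of the coding sequence. Their distances are thus not comparable to those of the other genes. The mug125 stretch holds the letters in both orientations, 5 bases apart.

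The mug genes were weakly expressed in these cultures. Their median level over the 6 libraries was 4.04 FPKM, a measure of level per transcript length, against 11.8 FPKM over all genes found in ASM294v3. The median annotated transcript was 1479 bases long, against 1682 bases over all genes, and 38 mug genes (36.9%) had an intron, against 48.3% of all genes. They lay on chromosome I in 52 cases, on chromosome II in 25 and on chromosome III in 26. The transcripts of 0 mug genes shared a run of 50 bases with another place in the genome. A coding gene lay across 42 of the 103 on the other strand, and no source says whether reads were counted by strand.

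Which mug genes changed when H2B could not be ubiquitinated was asked by fitting all genes with edgeR's quasi-likelihood test, with FDR as the Benjamini-Hochberg adjusted p over 4969 genes tested. Of the 103 mug genes, 90 passed the low-count filter and were tested. More than 2-fold higher in htb1-K119R at an FDR below 0.05 were 10 mug genes, or 11.1% of those tested, against 4.71% of all genes. None was more than 2-fold lower, against 3.64% of all genes (DESeq2 also called 0, and no tested mug gene had a log2 fold change below that of mug84, -0.92). At an FDR below 0.05 with any fold, 22 mug genes were higher (24.4%, against 18.6% of all genes) and 12 were lower (13.3%, against 19.3% of all genes). The remaining 56 did not pass.

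The shift was modest for the group as a whole. The median log2 fold change of the tested mug genes was 0.15, with quartiles of -0.20 and 0.51, and that of all genes tested was -0.01. Without the TMM factors, the median of all genes moved to 0.15 and that of mug genes to 0.29, with 19 mug genes higher and 3 lower. The share of higher genes among mug genes past FDR 0.05 was then 86.4%, against 64.7% with TMM. All genes moved in the same direction, from 924 higher and 958 lower with TMM to 815 higher and 403 lower without it. All htb1-K119R libraries were above all WT libraries for 29 tested mug genes (25.0% of all genes were so) and below them for 17 (23.9% of all genes were so). The mug genes held 0.267%, 0.244% and 0.251% of the counts of the htb1-K119R libraries, against 0.175%, 0.183% and 0.231% in WT. The groups did not overlap in this share, and WT replicate 3 was nearer to htb1-K119R than to the other WT libraries. The share was taken without the TMM factors, which were 0.824, 0.863 and 1.17 in WT replicates 1, 2 and 3. Scaled by them, WT replicate 3 would not be nearer to htb1-K119R than the other WT libraries are. No other gene set was compared in this way. A single gene, mug33, gave 10920 of the 50382 mug counts in htb1-K119R replicate 1.

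**Figure D1:**
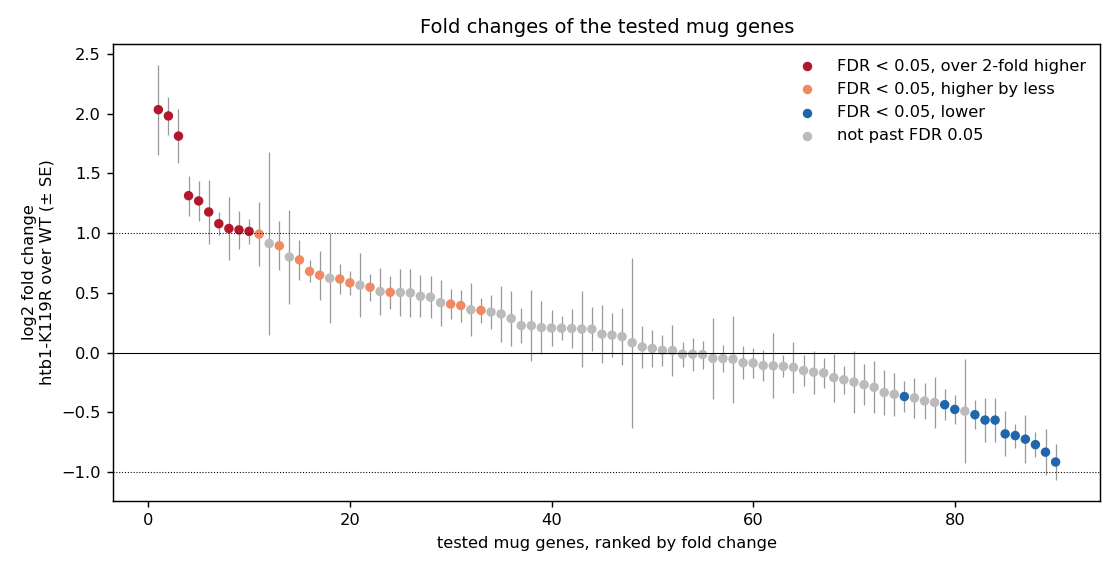
Log2 fold change of htb1-K119R over WT (vertical axis) for the 90 tested mug genes ranked by that value (horizontal axis), with bars for the standard error and dotted lines at 2-fold. The 10 dark red points are above 2-fold at an FDR below 0.05, and no point lies below the lower dotted line.

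**Figure D2:**
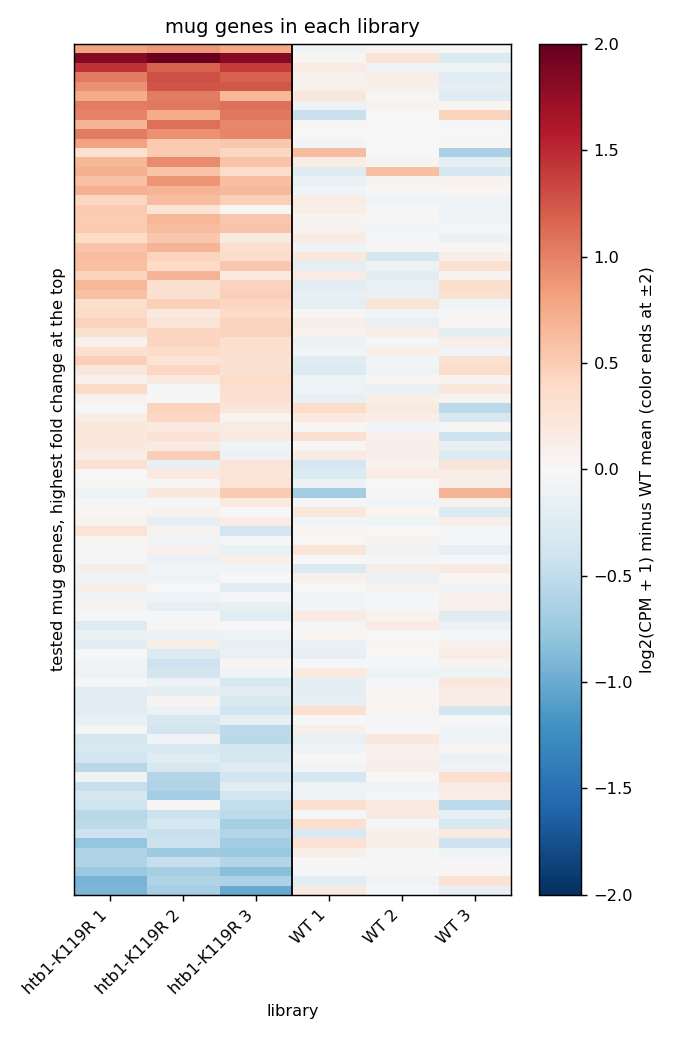
Log2(CPM + 1) of each tested mug gene (rows, by fold change) in each library (columns), minus the mean of the 3 WT libraries, on a color scale that ends at ±2. The rows at the top are red in all 3 htb1-K119R libraries and those at the bottom blue, whereas several rows in the middle differ most between WT replicates.

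The largest changes among mug genes with at least 10 counts in every library were those of mug135 and mug93. The mug135 gene (SPCC330.04c, chrIII:112050-113431) belongs to the mug2/mug135/meu2 family and is annotated with a repeat expansion. It had 86.3, 108 and 85.5 CPM in htb1-K119R, against 24.1, 28.1 and 19.1 CPM in WT. The genotypes were far apart relative to their spread, with means of 93.4 ± 13.0 and 23.8 ± 4.54 CPM (SD, n = 3 each). The log2 fold change was 1.98 ± 0.16 (SE), or 3.95-fold, with an FDR of 9.96e-06. Within the mug135 transcript, 8.93% of 50-base words recur inside the gene itself. The paralog mug2 had 64.0, 64.9 and 65.4 CPM in htb1-K119R and 72.3, 70.1 and 68.1 CPM in WT, a log2 fold change of -0.11 that did not pass the test (FDR = 0.344). Of 6 other members of the family 5 were tested, and SPCC569.03 alone passed, at a log2 fold change of 1.01 (FDR = 0.000781). The median over these 5 was -0.32.

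The mug93 gene (SPBC32H8.06, chrII:1461719-1463083) encodes a TPR repeat protein and is annotated as meiotically spliced. It had 6.02, 4.83 and 5.78 CPM in htb1-K119R, against 1.90, 1.44 and 1.45 CPM in WT. No WT library came near the lowest htb1-K119R library, and the log2 fold change was 1.81 ± 0.22 (SE, FDR = 0.000177). The mug94 gene (SPAC10F6.07c, chrI:1218321-1218887), for a protein found only in S. pombe, had the highest log2 fold change, 2.03 ± 0.38 (FDR = 0.00209). That change rests on few counts, 27, 25 and 24 in the htb1-K119R libraries and 3, 5 and 8 in the WT libraries. With a minimum of 10 counts in every library mug94 was not tested, since it passed the low-count filter through its htb1-K119R libraries.

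Mug27, also called Slk1, is a protein kinase made in meiosis and known for its role at the forespore membrane, the sac that becomes the spore envelope. The mug27 gene (SPCC417.06c, chrIII:1677093-1679436) had 86.7, 88.0 and 91.6 CPM in htb1-K119R, against 38.9, 44.0 and 42.9 CPM in WT. Spread within each genotype was small, and the log2 fold change was 1.08 ± 0.10 (SE, FDR = 2.41e-05). Its neighbor on the same strand, mto1, which encodes a factor for cytoplasmic microtubule nucleation and whose annotated end lies 324 bases away, had a log2 fold change of 2.40 (FDR = 4.40e-05). Whether reads of one gene were assigned to the other was not tested. The other 2 mug genes classed as kinases, mug51 and mug58, did not pass, at log2 fold changes of 0.15 and 0.02.

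Genes annotated as genus- or species-specific or as orphans, a few of them with a family or a role, made up 44 of the 103, of which 35 were tested. In this class 4 were more than 2-fold higher (11.4%, against 11.1% of all tested mug genes and 4.71% of all genes). At an FDR below 0.05, 10 were higher (28.6%, against 18.6% of all genes) and 4 lower (11.4%, against 19.3% of all genes), and the median log2 fold change was 0.20. The mug168 gene (SPBC660.09, chrII:211511-212091) had 12.6, 15.2 and 13.9 CPM in htb1-K119R, against 5.997, 6.25 and 4.67 CPM in WT. All htb1-K119R libraries of mug168 exceeded all WT libraries, and the log2 fold change was 1.31 ± 0.17 (FDR = 0.000209). The mug125 gene (SPAC1A6.08c, chrI:1086242-1087276) had 10.7, 14.6 and 13.2 CPM in htb1-K119R and 6.38, 6.32 and 6.15 CPM in WT. The WT libraries of mug125 were close together and those of htb1-K119R wider apart, at a log2 fold change of 1.03 ± 0.16 (FDR = 0.000809). The mug95 gene (SPAC1250.02, chrI:5099293-5099986) had 3.38, 4.28 and 3.15 CPM in htb1-K119R, against 2.05, 1.65 and 1.20 CPM in WT. These groups were separate but wide, and the log2 fold change of mug95 was 1.18 ± 0.27 (FDR = 0.00700).

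Of genes with a known or conserved family, mug37 (SPBC31F10.05, chrII:3759893-3761184), for a conserved fungal protein, had 12.8, 16.5 and 16.3 CPM in htb1-K119R, against 6.76, 6.89 and 5.41 CPM in WT. Its log2 fold change was 1.27 ± 0.17 (FDR = 0.000257). It overlaps sar1, for a small GTPase of secretion on the other strand, over 575 bases, and sar1 had a log2 fold change of 0.08 (FDR = 0.792). The mug72 gene (SPCC1902.02, chrIII:1662552-1665142), for a predicted oxidoreductase, had 36.9, 34.0 and 35.4 CPM in htb1-K119R and 17.4, 17.7 and 17.5 CPM in WT. Spread within either genotype was small, and the log2 fold change of mug72 was 1.02 ± 0.11 (FDR = 6.08e-05). The mug8 gene (SPAC32A11.01, chrI:2445242-2447714), for another conserved fungal protein, had 7.004, 5.77 and 7.39 CPM in htb1-K119R, against 1.97, 3.02 and 4.50 CPM in WT. The WT libraries of mug8 spread more than 2-fold, and its log2 fold change of 1.04 ± 0.27 (FDR = 0.0118) became 1.42 without WT replicate 3 and 0.81 without WT replicate 1.

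**Figure D3:**
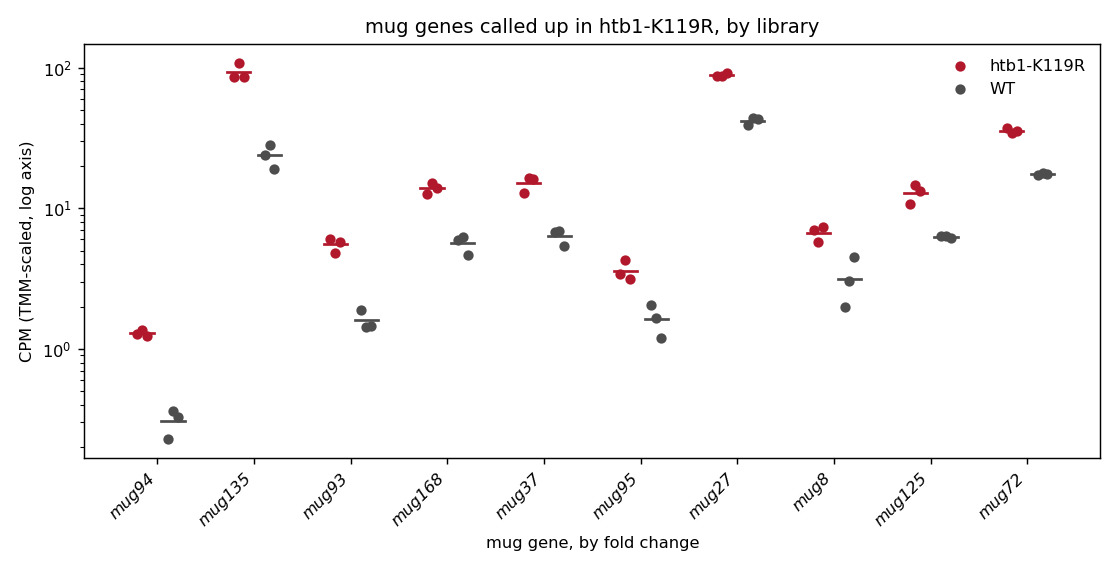
TMM-scaled CPM on a log axis for the 10 mug genes called higher in htb1-K119R, with 3 htb1-K119R libraries (red, left of each pair) and 3 WT libraries (gray, right), and lines at the means. In every pair the red points lie above the gray points, with the narrowest gap at mug8.

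Each of these 10 genes stayed at an FDR below 0.05 when any 1 library was left out. Of them 6 (mug135, mug168, mug27, mug37, mug93 and mug94) also stayed more than 2-fold higher in all 6 such fits. Without WT replicate 3 the count was again 10, of which 9 were shared, since mug95 had a log2 fold change of 0.96 and mug170 one of 1.04. In that fit 291 of all genes were called higher, against 234 with all libraries. The mug8 gene missed the FDR threshold with library totals in place of TMM (FDR = 0.0636) and with limma on log2(FPKM + 1) without a filter (FDR = 0.0567), and it was past both thresholds in 10 of 17 alternatives. Just inside the threshold of 2-fold with all libraries were mug125 and mug72, at log2 fold changes of 1.03 and 1.02. Just outside it were mug170, for an arrestin family protein, at 0.99 (FDR = 0.0146), and mug114 at 0.90 (FDR = 0.00693).

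Below 2-fold, further mug genes passed the test in the upward direction. The mug170 gene had 2.87, 2.20 and 2.22 CPM in htb1-K119R, against 1.14, 1.22 and 1.28 CPM in WT, and lost the call without htb1-K119R replicate 1 (FDR = 0.0884) or WT replicate 2 (FDR = 0.0527). The mug163 gene, for a conserved mitochondrial protein, had 9.17, 11.4 and 9.19 CPM in htb1-K119R and 5.16, 6.03 and 6.07 CPM in WT. Its log2 fold change was 0.78 ± 0.17 (FDR = 0.00478). The mug186 gene, for the predicted sorting nexin Snx41, which takes part in membrane traffic, had 113, 110 and 108 CPM in htb1-K119R, against 66.2, 69.9 and 70.7 CPM in WT. Both groups of mug186 values were narrow, and the log2 fold change was 0.68 ± 0.09 (FDR = 0.000307).

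Levels per length differed widely among the mug genes, and the 5 highest were compared by FPKM. These values carry no TMM factors, and by limma on log2(FPKM + 1) the median log2 fold change of all genes was itself 0.15. Mug33, a Tea1-interacting protein of exocytosis, led with 327 ± 11.4 FPKM in htb1-K119R and 219 ± 17.5 FPKM in WT (SD, n = 3 each). It was followed by mug134, for the predicted Igo1 protein, at 122 ± 5.54 FPKM in htb1-K119R and 91.8 ± 7.68 FPKM in WT. In order of mean FPKM the next were mug108, mug143 and mug186, at 67.2, 61.3 and 43.3 FPKM over the 6 libraries. By the count test, mug108 was higher (log2 fold change 0.55, FDR = 0.00371), whereas mug134 (0.20, FDR = 0.344) and mug143 (0.21, FDR = 0.306) did not pass. For mug33 the log2 fold change was 0.39 ± 0.13 (FDR = 0.0398), and it stayed below an FDR of 0.05 in 1 of 6 fits that left out a library.

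A set of 12 mug genes was lower in htb1-K119R, by less than 2-fold in each case. The largest was that of mug84 (SPAC22A12.13, chrI:1180224-1181157), for a predicted pig-P subunit, part of the enzyme that starts GPI anchor synthesis. It had 10.4, 12.6 and 9.76 CPM in htb1-K119R, against 23.5, 20.0 and 18.4 CPM in WT. The log2 fold change was -0.92 ± 0.15 (FDR = 0.00105) and became -1.05 without htb1-K119R replicate 2, the only such fit that put a mug gene more than 2-fold lower. Among RNA factors, mug161, for a CwfJ family splicing factor, had 85.2, 79.2 and 77.9 CPM in htb1-K119R and 141, 128 and 123 CPM in WT. Its log2 fold change of -0.69 ± 0.10 (FDR = 0.000454) passed in each of the 6 fits without a library.

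The other lower mug genes named by the rule were less even in function. The mug35 gene, for a Schizosaccharomyces-specific protein, had 22.8, 24.0 and 21.1 CPM in htb1-K119R, against 37.6, 38.4 and 39.7 CPM in WT (log2 fold change -0.77, FDR = 0.000318). The mug185 gene, for a predicted co-chaperone, had 4.89, 6.37 and 6.35 CPM in htb1-K119R and 8.65, 9.69 and 12.7 CPM in WT (log2 fold change -0.83, FDR = 0.00729). Both kept their groups apart, with the wider WT spread at mug185. Calls for mug126 (log2 fold change -0.72, FDR = 0.0178), mug182 for NADHX epimerase (-0.68, FDR = 0.0171) and mug5 (-0.56, FDR = 0.0347) were less firm, since they held in 3, 2 and 2 of the 6 fits without a library. The count of lower mug genes was 6 without htb1-K119R replicate 1, 7 without htb1-K119R replicate 3 and 7 without WT replicate 2, against 14 without WT replicate 3. Over all genes the count of lower genes was 598, 570, 634 and 1375 in these 4 fits, against 958 with all libraries.

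Several mug genes with meiotic or conserved roles were hardly present or did not pass. Mug28, an RNA-binding protein of spore formation, had 2 counts in 1 htb1-K119R library and 0 in the other 5 libraries. Mug20, a component of the linear elements on which meiotic recombination takes place, had 7, 7 and 11 counts in htb1-K119R and 12, 8 and 10 counts in WT. Neither was tested, along with 11 further mug genes below the filter. Of these, mug116 had 0 counts in every library, and mug97 had 22 counts in 1 htb1-K119R library, 39 in 1 WT library and 0 in the other 4. For mug81, the RNA helicase Slh1, the log2 fold change was 0.46 (FDR = 0.0606), and for mug178, a mitochondrial ribosomal protein, 0.47 (FDR = 0.0539). The direction of mug81 turned with GC and length correction (-0.077, FDR = 0.780), whereas it was past the threshold without WT replicate 2 (FDR = 0.0355) and with the replicate number as a block (FDR = 0.0410). Without WT replicate 3, mug178 was past the threshold, as it was in 5 of 17 alternatives in all.

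Called mug genes were found both with and without FLEX-type letters. Of the 35 tested mug genes with the letters 5 were called higher, namely mug94, mug135, mug93, mug27 and mug125. Of the 55 without them 5 were called higher, a smaller share, and this difference was not tested. The median log2 fold change was 0.20 with the letters and 0.03 without them. Over all genes, 6.02% of 830 tested genes with the letters were called higher, against 4.71% of all genes tested. The transcript of mei4 itself had 5.41, 5.11 and 5.37 CPM in htb1-K119R and 5.85, 4.52 and 5.08 CPM in WT, a log2 fold change of 0.04 that did not pass (FDR = 0.870).

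**Figure D4:**
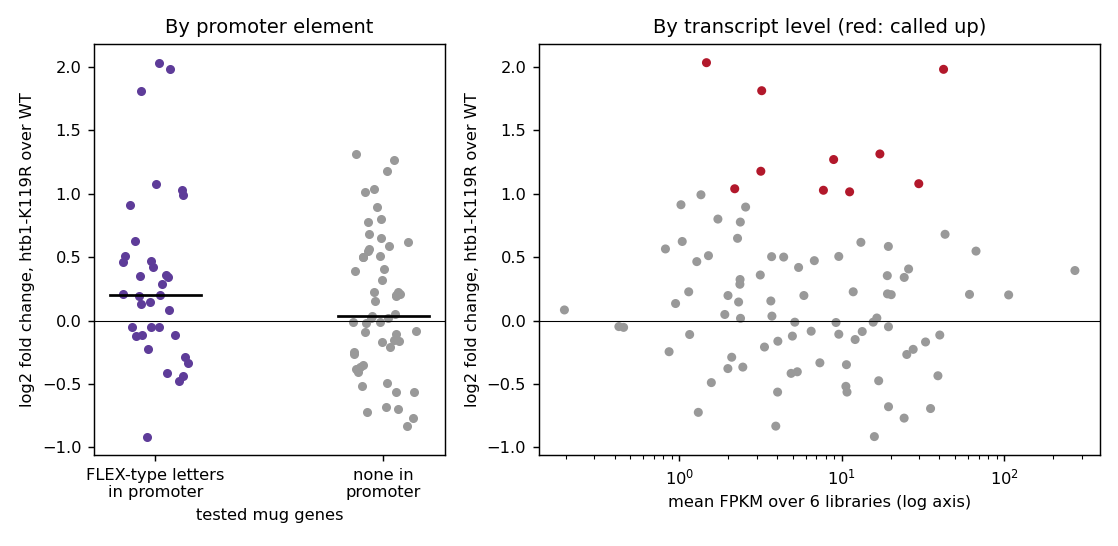
Left, log2 fold changes (htb1-K119R over WT) of tested mug genes with and without FLEX-type letters in the promoter, with lines at the medians of 0.20 and 0.03. Right, the same fold changes against mean FPKM on a log axis, where the 10 red points of called genes reach from 1.47 FPKM at mug94 to 42.4 FPKM at mug135.

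The level of a gene bore on how often it was called. When tested genes were divided into 4 groups of equal size by FPKM, 10.2% of all genes in the lowest group were called higher, and 4 of 36 mug genes (11.1%) were. In the second group 3 of 25 mug genes (12%) were called higher, against 4.59% of all genes, and in the third 3 of 25 (12%), against 2.42%. None of the 4 mug genes in the highest group was called, against 1.61% of all genes.

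Other regulators of meiosis were measured beside the mug genes. Of 10 tested regulators of meiotic entry and transcription 4 were higher, namely atf21, ste11, fkh2 and rep1, or 40%, against 18.6% of all genes tested. All 10 had log2 fold changes above 0, as did 2462 of 4969 genes. The ste11 gene, for the HMG factor that starts sexual development, had 64.6, 68.6 and 60.5 CPM in htb1-K119R, against 41.8, 42.9 and 40.8 CPM in WT. Its log2 fold change was 0.63 ± 0.10 (FDR = 0.000748), and the groups were well apart. For fkh2 and rep1 the log2 fold changes were 0.48 (FDR = 0.0256) and 0.45 (FDR = 0.0306), and mei2, for the RNA-binding protein that commits cells to meiosis, did not pass at 0.25 (FDR = 0.524). The calls for fkh2 and rep1 held in 2 and 1 of the 6 fits without a library. The median over the 10 was 0.41.

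Genes of meiotic RNA elimination were tested for 10 members, of which 3 were higher (30%, against 18.6% of all genes) and 0 lower (against 19.3% of all genes), also 0 at an unadjusted p below 0.05 and 0 by DESeq2, with 1 lower gene when WT replicate 1 was left out. The highest was rrp6, the exosome nuclease, with 135, 133 and 165 counts in htb1-K119R and 13, 12 and 26 counts in WT, at a log2 fold change of 2.90 ± 0.23 (FDR = 1.14e-05). The mtl1 gene, for the helicase of the complex that feeds the exosome, had a log2 fold change of 1.16 (FDR = 0.00113), and iss10 one of 0.27 (FDR = 0.0442). The gene for Mmi1 itself did not pass, at 0.33 (FDR = 0.0587), but passed without WT replicate 3, at 0.44 (FDR = 0.00255).

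Hexamers of the kind Mmi1 binds, which read TTAAAC or TCAAAC or else TGAAAC on the sense strand, were counted in each annotated transcript. Their median density was 1.26 per kb in the 103 mug genes and 1.18 per kb in 5108 genes. Of the 10 tested mug genes with the highest densities, from 2.94 to 13.1 per kb, 2 were called higher (mug8 and mug37), 3 were higher and 1 lower, and the median log2 fold change was 0.26, against 0.07 for the other 80. The densest coding stretches of mug9, the densest of the tested mug genes at a log2 fold change of 0.20 (FDR = 0.650), and of mug8, which was called, are shown from ASM294v3 with the hexamers in capitals.
mug9 (chrIII:2369109-2369198, minus strand): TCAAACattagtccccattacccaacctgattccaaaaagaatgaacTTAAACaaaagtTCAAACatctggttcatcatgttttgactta
mug8 (chrI:2447347-2447436, plus strand): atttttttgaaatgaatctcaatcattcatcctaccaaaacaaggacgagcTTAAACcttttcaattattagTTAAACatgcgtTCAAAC

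Each stretch of 90 bases holds 3 hexamers. Over the whole transcript the density was 13.1 per kb at mug9 and 3.86 per kb at mug8. The mug9 gene had few counts, 32, 26 and 20 in htb1-K119R and 16, 19 and 23 in WT. Whether the hexamers bear on these levels was not tested. Genes outside the mug set with names given to meiosis and sporulation genes (meu, mde, mcp, spo, rec, mei, ssm and sme) were taken by name alone. Their roles were not checked, so that mcp60, at between 2482 and 4268 CPM, was also counted, and it did not pass (FDR = 0.0826). The list shares mei2, mei3 and mei4 with that of the regulators of meiotic entry and transcription. It had 62 genes, of which 53 were tested. Of these, 7 were more than 2-fold higher (13.2%, against 4.71% of all genes) and 4 more than 2-fold lower (7.55%, against 3.64%). At an FDR below 0.05, 9 were higher (17.0%, against 18.6% of all genes) and 7 lower (13.2%, against 19.3%), and the median log2 fold change was 0.23. Among the 7 more than 2-fold higher, mde7 had 0 counts in every WT library and spo6 had 0, 0 and 4. These genes passed the low-count filter through their htb1-K119R libraries, so that the share of 13.2% rests in part on that filter.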

How the data were processed

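RNA-seq of 3 htb1-K119R and 3 WT libraries of S. pombe was analyzed. The authors enriched mRNA with oligo(dT), discarded rRNA reads, aligned by HISAT2 to an Ensembl release 45 genome, and deposited whole-number counts per gene. The counting tool for these counts was not given in the sources used here, although the processing notes of the submitters name RSEM, Bowtie2, fastp and DESeq2. The authors also deposited FPKM values from StringTie, used here for levels between genes. The deposited log2 fold change, p-value and FDR are the authors' own comparison and were not used. A further table with 12 per-sample columns was not used either.

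The count fit used edgeR 4.0.16 under R 4.3.3 (TMM, filterByExpr, genotype as the factor, quasi-likelihood test) and adjusted by Benjamini-Hochberg over all genes tested. Each SE is implied by the F statistic. CPM values are TMM-scaled. DESeq2 1.42.0 and limma 3.58.1 served as alternatives. Scripts were tested on simulated data. Positions come from ASM294v3, matched by locus tag for 5109 of 5184 genes, which need not be identical to the authors' annotation. The mug genes and lists were chosen with earlier results of these data known. Genes described singly were those past both thresholds, 10 further ones past FDR 0.05 with separate libraries, the 5 with the highest FPKM and a set with known or studied roles. Other genes, such as mug2, mug9, mug51, mug58, mug97 and mug116, were chosen after their values were seen.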

Additional observations from a re-analysis of the deposited data

How the results depend on the processing

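Counts of called mug genes changed little with the processing. Between 8 and 12 mug genes were called more than 2-fold higher over the 17 alternatives, and 4 (mug135, mug168, mug37 and mug93) were called in each. Of all genes, between 183 and 298 were called more than 2-fold higher over these alternatives, against 234 with all libraries. The count of lower mug genes, 12 with all libraries, was 3 with library totals in place of TMM, 4 with limma on log2(FPKM + 1), 4 with limma on log2(FPKM + 0.1) and 3 with limma on log2(FPKM + 1) without a filter. The count of lower genes among all genes also fell, to 403, 449, 444 and 407 in these settings, against 958 with all libraries. The median log2 fold change was 0.29 with library totals and 0.35 with limma on log2(FPKM + 0.1), settings in which the median of all genes was itself 0.15 and 0.17. It was 0.071 with GC and length correction and 0.073 with the block as well, with 27 and 28 mug genes higher at FDR 0.05. Among all genes, 984 and 998 were higher in these settings, against 924 with all libraries. Leaving out 1 library at a time gave between 0 and 1 mug genes more than 2-fold lower, between 6 and 14 lower at FDR 0.05, between 16 and 29 higher and medians between 0.08 and 0.14. Over all genes the same fits gave between 165 and 214 more than 2-fold lower, between 570 and 1375 lower and between 577 and 1319 higher.

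Deviations of same-numbered libraries had correlations of -0.29, 0.46 and 0.29, so that not every pair was above 0.1 and the numbers were not taken to pair the libraries. With the replicate number as a block, 10 mug genes were called higher, 26 were higher and 12 lower, with a median of 0.17. For all genes these counts were 241, 1026 and 1002. With GC and length correction 8 mug genes were called higher, and with the block as well 10, against 212 and 214 of all genes. Over 38 named genes and the alternatives, 561 of 643 values kept their direction and side of the threshold, 56 were no longer past it and 19 became so. The other 7 changed sign without passing in either fit, namely the log2 fold change of mug81 (-0.077 with GC and length correction, -0.065 with the block as well), of mei2 (-0.035 and -0.036) and of mei4 (-0.021 and -0.022). For mei4 the value also lay between -0.037, without WT replicate 2, and 0.13 when 1 library was left out. In the lists, the count of higher regulators of meiotic entry varied between 2 and 6 around 4. Mug genes with few counts, such as mug94, limit the precision of their fold changes.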

Other observations

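The nearest tested genes on each side of the 10 called mug genes were also examined. Of these 20 neighbors, 1 (5%) was more than 2-fold higher, namely mto1 beside mug27, against 4.71% of all genes. At an FDR below 0.05, 3 (15%) were higher and 3 (15%) lower, against 18.6% and 19.3% of all genes, and the median log2 fold change was 0.05. The mug95 gene lies between snf21, for a chromatin remodeling ATPase, and ubc14, which moved in opposite directions, with log2 fold changes of 0.86 (FDR = 0.000172) and -0.88 (FDR = 9.87e-05) by the edgeR quasi-likelihood test. Of 36 tested mug genes with a coding gene on the other strand, 2 were called higher, and of 54 without one, 8 were, against 4.71% of all genes. The median log2 fold changes of these 2 groups were 0.18 and 0.14. All genes were not split in this way, and whether such overlap bears on the calls was not tested.

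The genes named isp, for induction in sexual development, differed among themselves. The isp5 gene was higher at a log2 fold change of 2.30 (FDR = 7.55e-06), isp4 was lower at -0.81 (FDR = 0.00371), and isp3, isp6 and isp7 did not pass. The isp5 gene (SPAC1039.09) is on a clone near a chromosome end of the kind left out for the mug genes. Such clones were not left out of the other lists.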
